A study of Mus musculus with 2 samples.

Results

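Transcripts of the interleukin-1 (IL-1) family and of the inflammasome were followed in activated mouse macrophages. The genes were 10 rows picked by symbol in both expression tables, which hold 16263 genes each. They are the cytokines Il1a, Il1b and Il18, the antagonists Il1rn and Il18bp, the receptor chain Il1rap, the caspases Casp1 and Casp4, the sensor Nlrp3 and the adaptor Pycard. All 10 symbols were found, and all 10 passed a filter that asks for 1 FPKM in either library, as did 10092 genes in all. FPKM divides the fragments of a gene by the length of its transcript and by the mapped fragments of the library.

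The SIRPα-KO library came from mice labelled SIRPα-/-, that is as knockouts of the myeloid receptor that CD47 engages to restrain phagocytes, and its counterpart from wild type (WT) mice, both C57BL/6. Bone marrow-derived macrophages of both genotypes had been grown with M-CSF, a macrophage growth factor, for 5 days. Both were then exposed for 6 h to IFNγ at 20 ng/ml and LPS at 100 ng/ml, with a reagent labelled mCD47.ex present in both. For each genotype the cells of 5 mice went into a common RNA preparation, so each genotype is 1 library, the mice cannot be told apart, and no replicate error, SD or p-value can be given. The labels describe neither the targeted allele nor the age of the mice, and no library of resting cells or of cells without mCD47.ex was analysed here.

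IL-1α and IL-1β bind the same receptor, which signals with the accessory chain encoded by Il1rap, and the receptor antagonist encoded by Il1rn occupies that receptor without signalling. IL-1β and IL-18 are made as inactive precursors that caspase-1 cleaves after an inflammasome has formed, in which the sensor NLRP3 recruits caspase-1 through the adaptor ASC, the product of Pycard. The caspase encoded by Casp4, long called caspase-11 in mouse, binds intracellular LPS. In macrophages LPS raises the transcripts of Il1a, Il1b and Nlrp3, a step called priming. Transcript levels do not measure cleavage or release of the cytokines.

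Sirpa, the targeted gene, was at 71.47 FPKM in the SIRPα-KO library and at 153.87 FPKM in the WT library, 2.14-fold lower on FPKM + 1, so its transcript was still present. The SIRPα-KO table summed to 433460 FPKM and the WT table to 444294 FPKM. The step between low values corresponded to about 11200000 reads in SIRPα-KO and about 11300000 in WT. Of 11 macrophage markers 10 were measured and 9 passed the filter. Of these, 1 was at least 2-fold lower and 0 higher, against 4.3% and 3.43% of all genes that passed. Their median log2 ratio on FPKM + 1 was -0.12. Lyz2 was at 7208 FPKM in SIRPα-KO and 7106 FPKM in WT and Emr1 (F4/80) at 518.81 FPKM in SIRPα-KO and 488.85 FPKM in WT. Csf1r, the M-CSF receptor, was the lower one, at 109.8 FPKM in SIRPα-KO and 247.59 FPKM in WT. Short of 2-fold, Cd14 was at 163.84 FPKM in SIRPα-KO and 290.19 FPKM in WT, and Mertk at 177.91 FPKM in SIRPα-KO and 139.59 FPKM in WT. Sex-linked genes set the pools apart too. Xist was at 0.91 FPKM in SIRPα-KO and 47.54 FPKM in WT, and the Y-linked gene Eif2s3y at 21.41 FPKM in SIRPα-KO and listed at 0 in WT, so genotype and sex of the mice cannot be told apart.

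Of the 10 genes, Il1a and Il1rn were at least 2-fold lower in SIRPα-KO and none was at least 2-fold higher. Il1b, the IL-18 pair and Casp1 were nearer to their WT levels, Casp4 was lower but short of 2-fold, and Nlrp3 and Pycard were higher by less than 1.5-fold. The promoters of Il1a, Il1b and Il1rn, and of the neighbours Casp1 and Casp4, are shown because genes of the same locus or pathway differed in how far they stood from WT. They run 5′ to 3′ from 250 bases before to 50 bases after an annotated start, from RefSeq on GRCm38.p6, a later build than the mm9 named in the submitters' processing notes. For Il1rn and Casp4 the most upstream start of 3 and of 2 is shown, since a value per gene does not tell which start was used. Capitals mark matches to the motifs named after the sequences.
Il1a (chr2:129309923-129310222, minus strand): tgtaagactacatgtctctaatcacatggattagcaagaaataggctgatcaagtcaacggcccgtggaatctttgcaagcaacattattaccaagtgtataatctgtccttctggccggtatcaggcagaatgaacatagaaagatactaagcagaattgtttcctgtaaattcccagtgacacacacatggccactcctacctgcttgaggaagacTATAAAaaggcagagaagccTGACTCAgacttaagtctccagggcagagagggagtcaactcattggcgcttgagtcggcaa
Il1b (chr2:129371090-129371389, minus strand): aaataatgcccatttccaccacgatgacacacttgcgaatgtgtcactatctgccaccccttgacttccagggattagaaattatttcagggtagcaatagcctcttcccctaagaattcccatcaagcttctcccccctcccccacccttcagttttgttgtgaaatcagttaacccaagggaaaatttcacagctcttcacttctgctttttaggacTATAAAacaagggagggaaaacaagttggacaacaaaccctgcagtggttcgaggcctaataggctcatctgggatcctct
Il1rn (chr2:24336610-24336909, plus strand): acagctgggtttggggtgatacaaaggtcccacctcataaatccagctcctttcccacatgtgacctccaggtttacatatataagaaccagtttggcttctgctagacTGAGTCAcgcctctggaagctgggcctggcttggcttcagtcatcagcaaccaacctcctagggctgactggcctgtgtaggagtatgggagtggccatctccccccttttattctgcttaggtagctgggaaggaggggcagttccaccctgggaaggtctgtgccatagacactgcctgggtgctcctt
Casp1 (chr9:5298267-5298566, plus strand): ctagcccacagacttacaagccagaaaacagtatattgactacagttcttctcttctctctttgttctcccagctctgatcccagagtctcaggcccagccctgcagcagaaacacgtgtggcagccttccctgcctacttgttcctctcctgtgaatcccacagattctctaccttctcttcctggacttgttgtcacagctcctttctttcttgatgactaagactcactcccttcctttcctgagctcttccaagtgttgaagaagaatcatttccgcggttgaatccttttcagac
Casp4 (chr9:5308599-5308898, plus strand): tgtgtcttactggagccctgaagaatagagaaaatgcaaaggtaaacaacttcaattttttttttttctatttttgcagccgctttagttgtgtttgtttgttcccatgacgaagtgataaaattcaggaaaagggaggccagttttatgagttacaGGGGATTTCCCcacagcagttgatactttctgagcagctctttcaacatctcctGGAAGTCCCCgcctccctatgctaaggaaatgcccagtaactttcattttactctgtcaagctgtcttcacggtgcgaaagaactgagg

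The letters searched were TGANTCA (AP-1), TTGCNNAA (C/EBP), TTCNNNGAA (the STAT site GAS) and the consensus letters of the interferon element ISRE and of the κB site, each on both strands, and TATAAA (the TATA box) as written. Overlapping matches were counted separately. Promoters were found for all 10 genes, 14 in number with the alternative starts. An AP-1 match lay in the Il1a promoter and in the upstream Il1rn promoter, against 5.95% of the 15886 promoters that RefSeq gave for 12648 genes of the tables. No other promoter of the 10 genes had one. Starts 2 and 3 of Il1rn, not shown, thus had 0 AP-1 matches, and which Il1rn start was used is not known. TATAAA lay in the Il1a and Il1b promoters, against 5.19% of all. The κB consensus had 3 matches in the Casp4 promoter, 2 of them overlapping, and 1 in the upstream Nlrp3 promoter, against 10.4% of all promoters with a match. C/EBP letters occurred in the Il18bp and Pycard promoters and ISRE letters in that of Il1rap, against 9.19% and 3.21% of all. No promoter of the 10 genes held the GAS letters, against 7.19% of all. A match describes these letters in this window and is not a measured binding site.

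Among the agonists, Il1a stood farthest from WT. It was at 51.8 FPKM in SIRPα-KO and at 207.8 FPKM in WT, which is 3.95-fold lower (log2 ratio -1.98, computed on FPKM + 1, as are all log2 ratios of genes below). Only 72 of the 10092 kept genes had a lower log2 ratio. With the transcript length in GENCODE, these levels stand for about 1150 reads in SIRPα-KO and 4630 in WT, so counting error is small beside the difference, while the variation between mice is unknown. Il1b, the other ligand of the same receptor, was at 197.31 FPKM in SIRPα-KO and 242.74 FPKM in WT, a log2 ratio of -0.30. Il1a therefore made up 20.8% of the summed Il1a and Il1b FPKM in SIRPα-KO and 46.1% in WT. Il18 was at 62.78 FPKM in SIRPα-KO and 65.13 FPKM in WT, a log2 ratio of -0.05.

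The antagonists differed in how far they stood from WT. Il1rn was the most abundant of the 10 genes in both libraries, at 1196.78 FPKM in SIRPα-KO and 2810.18 FPKM in WT, 2.35-fold lower (log2 ratio -1.23). By level it was number 38 of all genes in SIRPα-KO and number 9 in WT. Its row pools 3 RefSeq transcripts with starts apart from each other, which include secreted and intracellular forms, and the forms cannot be separated. Il18bp, a secreted protein that binds and neutralises IL-18, was at 133.08 FPKM in SIRPα-KO and 139.59 FPKM in WT, a log2 ratio of -0.07.

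**Figure D1:**
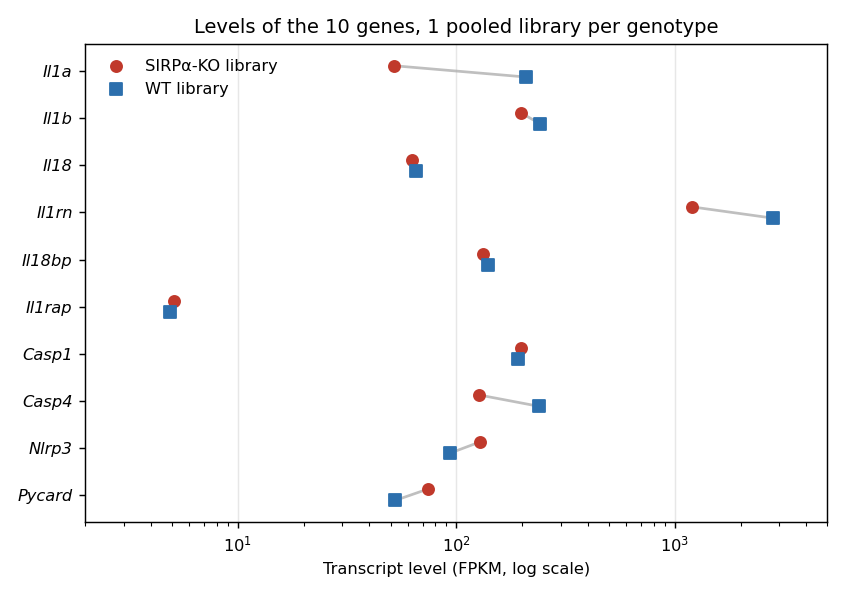
Transcript levels in FPKM (log axis) of the 10 genes, with a red circle for the SIRPα-KO library and a blue square for the WT library, each a pool of 5 mice with no replicate. Il1a (51.8 FPKM in SIRPα-KO, 207.8 in WT) and Il1rn (1196.78 in SIRPα-KO, 2810.18 in WT) have the widest gaps, and Il1rap lies lowest, at 5.12 FPKM in SIRPα-KO and 4.90 FPKM in WT.

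Of all kept genes, 434 were at least 2-fold lower in SIRPα-KO, or 4.3%, and 346 at least 2-fold higher, or 3.43%. The 2 lower genes among 10 stand beside that share, and with so few genes and members chosen with these results known no test was made. Among the 1545 genes that reached 50 FPKM in either library, a group that holds all of the 10 except Il1rap, 6.93% were at least 2-fold lower and 3.69% higher. At a limit of 1.5-fold, Casp4 joined Il1a and Il1rn, so that 3 of the 10 genes were lower and 0 higher, where 10.2% of all kept genes were lower and 10.9% higher. At 3-fold Il1a alone of the 10 was lower and 0 were higher, where 1.39% of all kept genes were lower and 1.29% higher. The median log2 ratio of the 10 genes was -0.06, against 0.06 over all kept genes. Of the 10, 4 lay above 0 and 6 below, and 4 (Il18, Il18bp, Il1rap and Casp1) lay within 0.1 of 0. The outermost member on the upper side, Pycard, had 1528 kept genes above it.

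**Figure D2:**
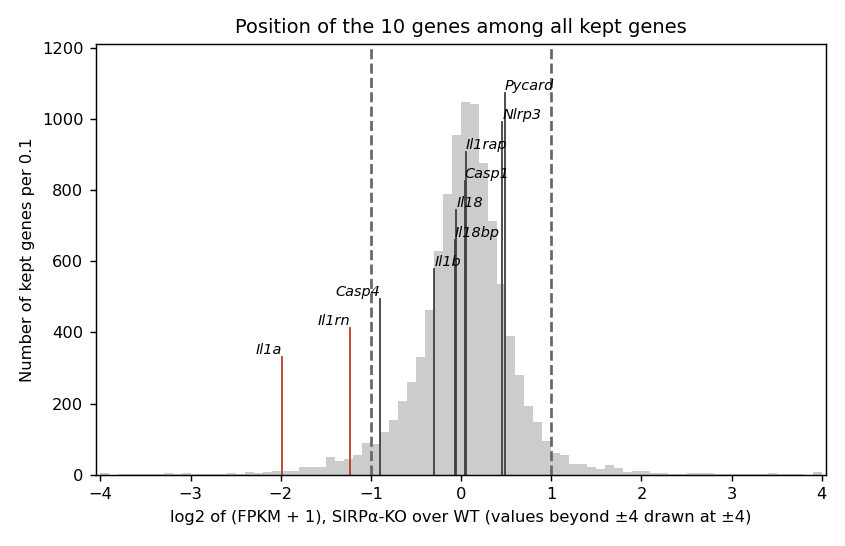
Distribution of log2 ratios of FPKM + 1, SIRPα-KO over WT, over 10092 kept genes (grey, number of genes per bin of 0.1), with a vertical line for each of the 10 genes (red if at least 2-fold, line heights arbitrary) and dashed lines at 2-fold. Il1a at -1.98 and Il1rn at -1.23 lie left of the lower dashed line, Casp4 at -0.90 just inside it, and Nlrp3 (0.46) and Pycard (0.48) right of the peak.

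The log2 ratio of Il1rn (-1.23) lay between those of Il1a (-1.98) and Il1b (-0.30). The balance of agonist to antagonist transcripts therefore depended on which agonist was counted. Agonist to antagonist ratios were taken within a library, without a pseudocount, so the scaling of the library cancels. There was 0.165 FPKM of Il1b per FPKM of Il1rn in SIRPα-KO and 0.0864 in WT, 1.91-fold higher in SIRPα-KO. For Il1a the ratio to Il1rn was 0.0433 in SIRPα-KO and 0.0739 in WT, 1.71-fold lower in SIRPα-KO. The agonist ratios thus stood on opposite sides of WT. With both agonists summed (249.11 FPKM in SIRPα-KO and 450.54 FPKM in WT) the ratio to Il1rn was 0.208 in SIRPα-KO and 0.160 in WT, 1.30-fold higher in SIRPα-KO. In FPKM, Il1rn exceeded the summed agonists by 4.80 to 1 in SIRPα-KO and by 6.24 to 1 in WT. The Il1rn transcripts run from 728 to 2474 bases in GENCODE, and the length behind its FPKM is not given. These values are therefore not counts of transcripts.

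For IL-18 the balance was nearly the same, with 0.472 FPKM of Il18 per FPKM of Il18bp in SIRPα-KO and 0.467 in WT. None of the ratios to an antagonist differed between the libraries by 2-fold. The ratio of Il1a to Il1b, which was added after the values were seen, did: it was 0.263 in SIRPα-KO and 0.856 in WT, 3.26-fold lower in SIRPα-KO.

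**Figure D3:**
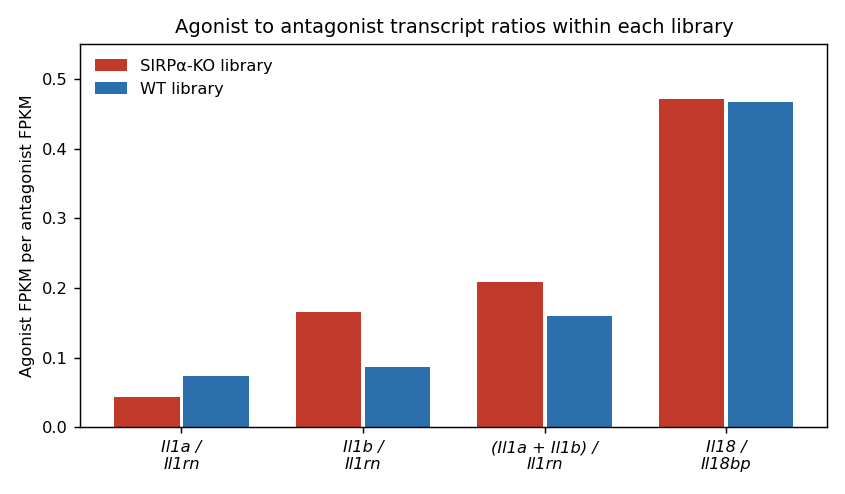
Agonist FPKM per antagonist FPKM within each library (bars from 0, red for SIRPα-KO, blue for WT, no error bars because each genotype is 1 library). Il1a per Il1rn is lower in SIRPα-KO (0.0433 against 0.0739 in WT), Il1b per Il1rn higher (0.165 against 0.0864), and Il18 per Il18bp level (0.472 against 0.467).

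Il1rap was the least abundant of the 10 genes, at 5.12 FPKM in SIRPα-KO and 4.90 FPKM in WT, which stands for about 132 reads in SIRPα-KO and 127 in WT if the shortest of its listed transcripts is assumed. The log2 ratio was 0.05. Most other chains of IL-1 family receptors were scarce in both libraries. Il1r1, the signalling IL-1 receptor, was at 0.15 FPKM in SIRPα-KO and 0.07 FPKM in WT, and Il1r2, the decoy receptor, at 0.20 FPKM in SIRPα-KO and 0.07 FPKM in WT, too low for their ratio to be read. Il18rap, the accessory chain of the IL-18 receptor, was at 9.65 FPKM in SIRPα-KO and 5.82 FPKM in WT (log2 ratio 0.64), and was the only receptor gene of the 7 measured that passed the filter. Its partner Il18r1 was at 0.43 FPKM in SIRPα-KO and 0.25 FPKM in WT.

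The inflammasome genes did not share a direction. Nlrp3 was at 127.93 FPKM in SIRPα-KO and 93.05 FPKM in WT (log2 ratio 0.46). Pycard was at 73.94 FPKM in SIRPα-KO and 52.57 FPKM in WT (log2 ratio 0.48). In GENCODE, 485 of its exon bases, or 12.8%, overlap Gm45205 on the opposite strand. The use of strand in counting is not given, so reads of this overlap cannot be told apart. Smaller shares of the exon bases of Il1rap (4.86%), Il18bp (2.64%) and Il1b (1.31%) overlap opposite-strand genes too. Ratios between inflammasome genes were added after the values were seen. The ratio of Nlrp3 to Pycard was 1.73 in SIRPα-KO and 1.77 in WT. Relative to Casp1, Nlrp3 was 1.34-fold higher in SIRPα-KO (0.650 against 0.487 in WT) and Pycard 1.37-fold higher (0.376 against 0.275 in WT). Casp1, the protease that this adaptor recruits, was at 196.88 FPKM in SIRPα-KO and 191.23 FPKM in WT, a log2 ratio of 0.04.

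Casp4 was at 127.3 FPKM in SIRPα-KO and 238.49 FPKM in WT, 1.87-fold lower (log2 ratio -0.90) and so just short of the 2-fold limit, with 520 of the kept genes below it. Casp1 and Casp4 lie next to each other on chromosome 9. In another ratio added after the values were seen, Casp4 stood at 0.647 FPKM per FPKM of Casp1 in SIRPα-KO and at 1.25 in WT, so Casp4 was the lower of the pair in SIRPα-KO and the higher in WT. No 50-base word (0%) of either gene occurs in a transcript of another gene.

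Around these genes, 6 lists of pathway genes were read in the same way. Of 71 symbols listed, which include old and new names of the same gene, 59 were in the tables and 46 passed the filter. Of these 46, 0 were at least 2-fold higher and 3 at least 2-fold lower, or 6.52% against 4.3% of all kept genes. Their median log2 ratio was -0.09 against 0.06 over all kept genes. With 1 library per group no test underlies these counts, and the count of 0 has no p-value beside it.

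The called genes were sensors and a caspase. Naip2, whose product detects a bacterial secretion system rod protein for the NLRC4 inflammasome, was at 13.79 FPKM in SIRPα-KO and 46.95 FPKM in WT (log2 ratio -1.70). Naip5, a flagellin receptor of the same inflammasome, was at 6.65 FPKM in SIRPα-KO and 14.60 FPKM in WT (log2 ratio -1.03), and fell short of 2-fold when both libraries were scaled to the same sum. Both are uncertain, because 19.1% of the 50-base words of Naip2 and 36.8% of those of Naip5 also occur in other genes, mostly of the same family. Casp2, a caspase linked to DNA damage, was at 1.60 FPKM in SIRPα-KO and 6.09 FPKM in WT (log2 ratio -1.45).

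Over the 12 other sensors kept, the median log2 ratio was -0.43, the lowest of the 6 lists, with 2 lower, 0 higher and 10 neither. Nod1, a peptidoglycan sensor and the sensor with the highest mean level, was at 57.59 FPKM in SIRPα-KO and 47.86 FPKM in WT. Aim2, the DNA sensor that also recruits ASC, and Mefv, the gene of pyrin, were named after their values were seen. Aim2 was at 21.00 FPKM in SIRPα-KO and 40.90 FPKM in WT (log2 ratio -0.93), and Mefv at 41.30 FPKM in SIRPα-KO and 63.46 FPKM in WT (log2 ratio -0.61). Both were short of 2-fold, on the opposite side of WT from Nlrp3.

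Adaptors and kinases that signal for IL-1 and toll-like receptors had a median log2 ratio of 0.01 over 12 genes, with 0 called. Myd88, the adaptor shared by both receptor groups, was at 187.9 FPKM in SIRPα-KO and 189.4 FPKM in WT. Cofactors of the inflammasome and effectors of lytic death had a median of -0.05 over 13 genes, also with 0 called. The chaperone gene Hsp90ab1 was the most abundant of them, at 554.18 FPKM in SIRPα-KO and 422.59 FPKM in WT. Gsdmd, the pore-forming protein that these caspases cleave (named after its value was seen), was at 87.07 FPKM in SIRPα-KO and 99.34 FPKM in WT. Other caspases had a median of -0.34 over 6 genes, with Casp2 lower and Casp8, the most abundant, at 112.85 FPKM in SIRPα-KO and 117.37 FPKM in WT. Of the other IL-1 family ligands 3 were measured and 2 kept, and Il1f9 (IL-36γ) was at 5.57 FPKM in SIRPα-KO and 6.07 FPKM in WT.

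**Figure D4:**
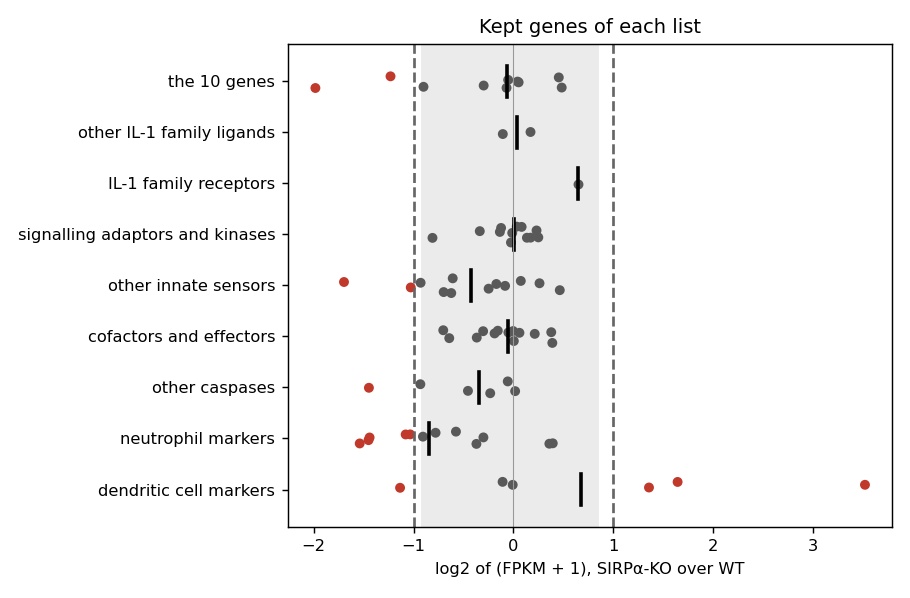
Log2 ratios of FPKM + 1, SIRPα-KO over WT, of the kept genes in each list (points, red if at least 2-fold, with a black bar at the list's median), dashed lines at 2-fold and a grey band from the 5th to the 95th percentile of all kept genes (-0.91 to 0.85). The 12 other innate sensors lie mostly left of 0, and neutrophil markers lie to the left with a median of -0.84. Adaptors and kinases lie mostly close to 0, with Irak3 farthest out at -0.81.

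Markers of other cells that marrow cultures can hold differed between the libraries as well. Neutrophils express Il1b and Il1rn, and of 14 neutrophil markers 13 were measured and 12 kept, with 5 at least 2-fold lower and 0 higher in SIRPα-KO. Over all kept genes 4.3% were lower and 3.43% higher, the shares beside which all marker counts stand. The FPKM of the neutrophil markers summed to 349.92 in SIRPα-KO and 642.09 in WT. S100a9 was at 98.14 FPKM in SIRPα-KO and 202 FPKM in WT, Ngp at 24.71 FPKM in SIRPα-KO and 68.78 FPKM in WT, and Retnlg was the marker listed at 0 in SIRPα-KO, against 0.46 FPKM in WT. Kept markers on the other side of WT, both short of 2-fold, were Cxcr2, at 11.70 FPKM in SIRPα-KO and 8.66 FPKM in WT, and Mpo, at 3.34 FPKM in SIRPα-KO and 2.38 FPKM in WT. Of 10 dendritic cell markers 9 were measured and 6 kept, with 3 higher, 1 lower and a summed level of 187.08 FPKM in SIRPα-KO and 54.55 FPKM in WT, of which Ccl22 made up 139.11 FPKM in SIRPα-KO and 11.19 FPKM in WT, and Cd209a was the marker listed at 0 in SIRPα-KO. B cell markers summed to 2.47 FPKM in SIRPα-KO and 5.91 in WT, T and NK cell markers to 14.78 in SIRPα-KO and 16.32 in WT, and mast cell markers to 6.21 in SIRPα-KO and 3.46 in WT, with 0 called in these 3 lists. In such bulk samples, fewer cells of a type and less RNA per cell cannot be told apart. The part of other cells in the Il1a and Il1rn values was not tested.

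Il1a and Il1b lie close to the targeted gene. On the RefSeq gene map Il1a, Il1b, Gm14047, F830045P16Rik and Sirpa follow each other on chromosome 2 among the measured genes, and Il1rn lies elsewhere on that chromosome. In a stretch from 10 measured genes before Il1a to 10 after Sirpa, 25 genes were measured and 16 kept. Of these, 3 were at least 2-fold lower (Gm14023, Il1a and Sirpa) and 0 higher, where 4.3% of all kept genes were lower and 3.43% higher. Il1b, between Il1a and Sirpa, was not among the 3. Without Il1a, Il1b and Sirpa, 1 of 13 kept genes was lower and the median log2 ratio was -0.09. Stk35, the first kept gene beyond Sirpa and named after its value was seen, as was Gm14023, was at 3.53 FPKM in SIRPα-KO and 3.06 FPKM in WT. Gm14047, a non-coding transcript beside Il1b, was at 1.48 FPKM in SIRPα-KO and 2.56 FPKM in WT.

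Gm14023 is a non-coding gene on the opposite strand that overlaps Il1a in 222 exon bases, or 11.2% of the Il1a exon bases in GENCODE. It was at 4.13 FPKM in SIRPα-KO and 14.63 FPKM in WT (log2 ratio -1.61), the same direction as Il1a. No source used here gives the use of strand in counting, so reads of the overlap cannot be told apart. The part of the position next to the targeted gene in these values was not tested.

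**Figure D5:**
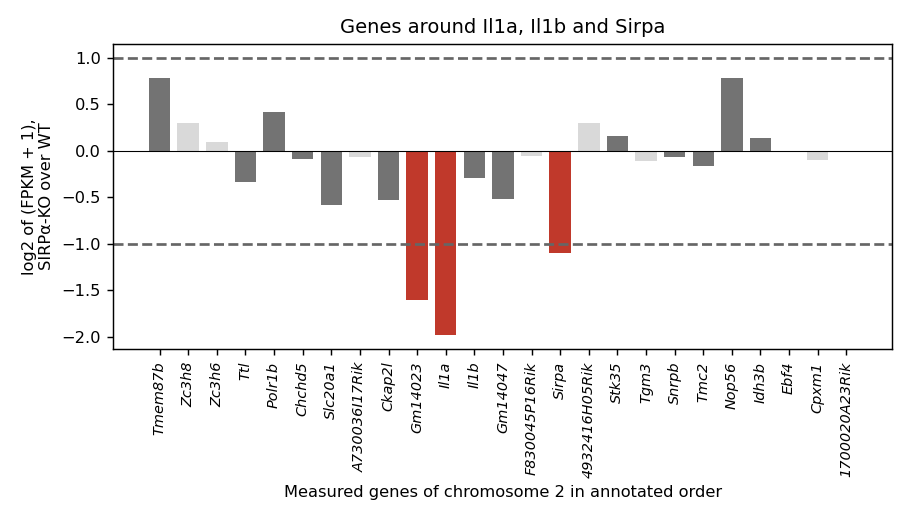
Log2 ratios of FPKM + 1, SIRPα-KO over WT, of 25 measured genes of chromosome 2 in annotated order (red if at least 2-fold, dark grey if kept and short of 2-fold, light grey if below 1 FPKM in both libraries, dashed lines at 2-fold). Gm14023 (-1.61), Il1a (-1.98) and Sirpa (-1.10) pass the lower line, whereas Il1b (-0.30) between them does not.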

How the data were processed

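RNA sequencing of 2 libraries, 1 per genotype, was analysed. The authors deposited 1 table per library that lists 16263 genes. The unit of the deposited values was read as FPKM from the values themselves, since low values step with transcript length and the tables name none. Per the submitters' processing notes, mm9, R 3.3.3 and DESeq2 were used, with no role given. Aligner, counter and strand setting were not given in the sources used here. Each value is relative to library size, so a few abundant genes can shift all others.

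A gene was kept if it reached 1 FPKM in either library, and the log2 ratio of SIRPα-KO to WT was taken on FPKM + 1, which understates differences of low genes. Calls were made at 2-fold. No test was possible, since each group is 1 library. The call was tested on simulated reads that held no variation between mice and no true change of exactly 2-fold. That simulation therefore cannot tell how often mice alone would give a call. Depth was estimated from low values of genes with 1 transcript, of which 69.1% in SIRPα-KO and 69.0% in WT lay within 0.15 of a whole read, against 30.3% in SIRPα-KO and 30.2% in WT with shuffled lengths, so whole reads were not recovered and no count test was run. GENCODE M21 gave lengths, overlaps and 50-base words, and RefSeq (GRCm38.p6) gene order and promoters. Python 3.11.15 and pandas 2.3.3 were used.

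The members, lists and named genes were chosen with earlier results of these data known. Named were the 10 members, Sirpa, called list genes at 5 FPKM or more (up to 3 per direction), the most abundant gene of each list and kept genes from Il1a to Sirpa. Other genes were named after their values were seen. Alternatives were another pseudocount, filter, fold limit or scaling.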

Additional observations from a re-analysis of the deposited data

How the results depend on the processing

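Il1a and Il1rn stayed at least 2-fold lower with a pseudocount of 0.1 and with each of 3 other scalings. Dropping the filter or raising it to 5 FPKM could not change their ratios, since both genes lie far above these limits. The median of ratios and trimmed mean scalings lower the log2 ratios by 0.04 and 0.05 before the pseudocount, and the same-sum scaling raises them by 0.04. Of the 10 genes, 1 changed sign under the trimmed mean scaling and 0 under the median of ratios or same-sum scaling. The 3 pathway genes called became 2 with the same-sum scaling, where Naip5 fell short of 2-fold, and 4 with a pseudocount of 0.1, which also took the genes called near Il1a to 4 from 3. At 3-fold, 1 of the 10 genes was called (Il1a), and 1 pathway gene (Naip2). At 1.5-fold, Casp4 joined, and 12 of 46 pathway genes were called (11 lower and 1 higher). Of 16 genes near Il1a, 5 were called (3 lower and 2 higher). Over all kept genes 10.2% were lower and 10.9% higher at that limit. Of 5 ratios between genes, 2 passed 1.5-fold, those of Il1a and Il1b to Il1rn, on opposite sides. The 5 include the receptor pair Il1r1 to Il1r2, which is not an agonist to antagonist ratio. No replicate could be left out, and no value between mice exists. No paired analysis was possible because each genotype is 1 pooled library. Il1r1 and Il1r2, at 0.20 FPKM or less in both libraries, are too low for their ratio to be read.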

Other observations

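Some measured neighbours of Il1rn, Casp4 and Pycard are given with their values, and all genes named here were chosen after their values were seen. Beside Il1rn on chromosome 2, Il1f9 had a log2 ratio of -0.11 and Psd4, which encodes an exchange factor for ARF6, of -0.61 (28.73 FPKM in SIRPα-KO and 44.47 FPKM in WT), against -1.23 for Il1rn. Beside Casp1 and Casp4 on chromosome 9, Casp12 was at 0.48 FPKM in SIRPα-KO and 0.68 FPKM in WT, and Msantd4 at 12.47 FPKM in SIRPα-KO and 11.40 FPKM in WT. Beside Pycard on chromosome 7, Itgam, the integrin chain CD11b, was at 161.55 FPKM in SIRPα-KO and 177.24 FPKM in WT, and Itgax, the integrin chain CD11c, was at least 2-fold lower, at 12.08 FPKM in SIRPα-KO and 27.73 FPKM in WT. Irak3, an inhibitory kinase of IL-1 and toll-like receptor signalling, was at 18.00 FPKM in SIRPα-KO and 32.32 FPKM in WT (log2 ratio -0.81), the widest gap in the adaptor list.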
